A study of Mus musculus with 8 samples.

Results

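Steroid production by the Leydig cells of the testis was followed through 10 genes, *Star*, *Cyp11a1*, *Cyp17a1*, *Hsd3b1*, *Hsd3b6*, *Hsd17b3*, *Insl3*, *Lhcgr*, *Nr5a1* and *Srd5a1*, out of 24651 genes with listed transcripts. The genes were named for their place in the pathway, and the read counts of each gene's transcripts were summed by symbol. RNA came from whole testes of male mice at postnatal day 12 on a mixed strain background, 1 pair of testes per library. The 4 control libraries are labelled wild type, although the text deposited with the data calls that group *Morc2b*+/-. The other 4 libraries are from *Morc2b*-/- males, in which exon 2 of *Morc2b*, holding the whole coding region, was deleted. The question asked of these genes is whether their transcripts differed between the genotypes, and how fetal-type and adult-type Leydig cell genes were distributed over the 8 testes.

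Leydig cells lie between the seminiferous tubules and make androgens from cholesterol under the control of luteinizing hormone. *Star* moves cholesterol into the mitochondrion, *Cyp11a1* cleaves its side chain to give pregnenolone, the 3-beta-hydroxysteroid dehydrogenases (*Hsd3b1*, *Hsd3b6*) and *Cyp17a1* lead to androstenedione, and *Hsd17b3* reduces androstenedione to testosterone. The mouse testis has a fetal Leydig cell population, which persists after birth, and an adult population that differentiates in the prepubertal testis, at first with high 5-alpha-reductase (*Srd5a1*). *Hsd3b6* and *Hsd17b3* are used as genes of the adult type, while *Star*, *Cyp11a1* and *Cyp17a1* are expressed by both.

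Of the 10 genes, 9 passed the filter on low counts and 7 have a single listed transcript. Reads that fell on more than 1 listed transcript were set aside by the authors and made up 26.77% to 28.85% of uniquely aligned reads per library. The counts of *Cyp11a1*, *Hsd3b1* and *Nr5a1*, with 2 listed transcripts each, therefore hold only reads specific to 1 of them. *Insl3*, which encodes a peptide hormone of Leydig cells needed for testis descent, had 0 to 2 counts per library and was not tested. In the mm9 annotation (chromosome 8, 74213113 to 74214474, plus strand), 404 bp or 64.8% of the *Insl3* exons lie within exons of *Jak3* on the same strand, so its counts are not a measurement of its expression.

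No genotype difference was called for any of the 9 tested genes. At an adjusted p under 0.05 (edgeR quasi-likelihood test, Benjamini-Hochberg adjustment over 13507 genes) 0 of 9 were called, beside 0% of all genes tested. The deleted gene *Morc2b* was not called either, although its log2 fold change was -4.09 (SE 1.21). A result of 0 of 9 after adjustment therefore does not show that these genes were unchanged. At an unadjusted p under 0.05, which *Morc2b* passed, the test again gave 0 of 9, beside 1.84% of all genes. The values of the genotypes overlapped for each of the 10 genes, whereas 1.29% of the tested genes had values that did not overlap. Relative to wild type, the log2 fold change was positive for 6 genes and negative for 3, with a median of 0.06 beside 0.002 over all genes. These are bulk samples, so fewer Leydig cells and less RNA per cell cannot be told apart.

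The libraries held 27144796 to 36941755 counts on transcripts, with a median of 31684771. Values below are CPM, the counts of a gene in proportion to all counts of its library after TMM normalization, and libraries are given in the order of replicates 1 to 4. The targeted gene did not separate the genotypes completely, because *Morc2b* itself was lower in wild type replicate 3 (0.857 CPM) than in *Morc2b*-/- replicate 3 (3.29 CPM). The summed level of 8 epididymis markers was 249.7 CPM in wild type replicate 1, followed by 13.9 CPM for *Morc2b*-/- replicate 2, and at most 1.55 CPM elsewhere. The summed level of 5 spermatid markers, genes of haploid cells not yet formed at this age, was 145.2 CPM in wild type replicate 1, 294.1 CPM in *Morc2b*-/- replicate 3, 32.0 and 16.4 CPM in *Morc2b*-/- replicates 2 and 1, and at most 2.29 CPM in the other 4 libraries. Their part in the results below was not tested beyond leaving out wild type replicate 1 and *Morc2b*-/- replicate 3, an alternative under which 0 of the tested genes of the pathway were called.

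The promoter sequences of 7 of the 10 genes were found in a RefSeq table of build GRCm38.p6, and *Star*, *Cyp17a1* and *Nr5a1* had no entry. The windows below are the 250 bases before the start, 5′ to 3′ along the gene's strand. Capitals mark AGGTCA, searched on both strands, the core motif bound by the steroidogenic factor that *Nr5a1* encodes. *Cyp11a1* is shown at both annotated starts, 16928 bp apart, because its transcripts varied differently over the libraries. *Lhcgr* is shown because it holds the motif and varied with *Star*. *Hsd17b3* and *Hsd3b6* are shown because neither rose with *Star* (Pearson r of the deviations -0.77 and -0.01 over 8 libraries).
Cyp11a1, upstream start, chr9:57997774-57998023, plus strand: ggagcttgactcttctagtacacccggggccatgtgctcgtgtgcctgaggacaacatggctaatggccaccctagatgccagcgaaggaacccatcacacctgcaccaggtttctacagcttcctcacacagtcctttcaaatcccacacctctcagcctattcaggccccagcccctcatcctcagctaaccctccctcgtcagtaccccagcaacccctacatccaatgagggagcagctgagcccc
Cyp11a1, downstream start, chr9:58014702-58014951, plus strand: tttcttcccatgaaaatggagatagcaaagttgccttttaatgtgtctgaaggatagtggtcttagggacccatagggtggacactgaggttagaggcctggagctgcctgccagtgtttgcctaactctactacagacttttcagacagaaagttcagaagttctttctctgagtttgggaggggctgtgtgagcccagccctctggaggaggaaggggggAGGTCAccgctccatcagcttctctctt
Lhcgr, chr17:88792015-88792264, minus strand: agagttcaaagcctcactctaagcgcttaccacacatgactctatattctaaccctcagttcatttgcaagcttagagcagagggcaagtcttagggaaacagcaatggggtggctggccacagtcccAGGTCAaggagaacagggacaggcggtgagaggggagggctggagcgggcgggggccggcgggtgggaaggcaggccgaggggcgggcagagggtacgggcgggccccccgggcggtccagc
Hsd17b3, chr13:64089202-64089451, minus strand: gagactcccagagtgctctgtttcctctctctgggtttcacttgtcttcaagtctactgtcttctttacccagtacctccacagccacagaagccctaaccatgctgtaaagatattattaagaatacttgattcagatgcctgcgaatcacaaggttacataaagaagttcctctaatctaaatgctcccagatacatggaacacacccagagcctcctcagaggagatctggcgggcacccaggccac
Hsd3b6, chr3:98814444-98814693, minus strand: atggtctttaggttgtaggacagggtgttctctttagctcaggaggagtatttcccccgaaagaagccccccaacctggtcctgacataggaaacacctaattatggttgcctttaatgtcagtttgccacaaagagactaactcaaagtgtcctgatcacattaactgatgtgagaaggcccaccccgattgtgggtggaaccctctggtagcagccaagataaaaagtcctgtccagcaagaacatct
The motif begins 28 bases before the downstream start of *Cyp11a1* and 122 bases before the start of *Lhcgr*. It was present in 2 of 8 windows of the pathway genes and in 14.0% of 32851 windows of all genes. A match is a description of these letters and not a measured binding site. The 50 bases after either *Cyp11a1* start, and after the *Lhcgr* start, were not found in coding transcripts of these genes in the mm9 annotation. Those of *Hsd17b3* and *Hsd3b6* were found at base 1. The 2 motif distances thus rest on starts without a match there.

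*Lhcgr*, the receptor for luteinizing hormone (mm9 chromosome 17, 89140889 to 89191316, minus strand), had 29.7, 12.4, 27.7 and 21.9 CPM in wild type testes and 29.3, 12.4, 11.9 and 19.9 CPM in *Morc2b*-/- testes. The highest and the lowest levels were nearly the same in both genotypes, so the groups overlapped over the whole range. The mean was 22.9 ± 7.78 CPM among wild type (SD, n = 4) and 18.4 ± 8.15 CPM among *Morc2b*-/-, a log2 fold change of -0.32 (SE 0.34, adjusted p = 0.9998, edgeR quasi-likelihood test). *Nr5a1*, the transcription factor that activates most genes of the pathway and is also expressed in Sertoli cells (chromosome 2, 38548176 to 38570062, minus strand), had 32 to 53 counts per library, or 1.01 to 1.44 CPM, with a log2 fold change of -0.10 (SE 0.19). It was the least variable of the 9 genes, with a within-genotype SD of 0.18 on the log2 scale beside a median of 0.19 over all genes. Its listed transcripts share sequence, so this level is not that of the gene.

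*Star*, the cholesterol carrier of the mitochondrion (chromosome 8, 26918946 to 26925782, plus strand), had 80.5, 41.0, 209.8 and 58.5 CPM in wild type testes. In *Morc2b*-/- testes it had 191.2, 36.2, 67.0 and 112.1 CPM. One library of each genotype, wild type replicate 3 and *Morc2b*-/- replicate 1, stood well above the others, and replicate 2 was the lowest in both. The means were 97.5 ± 76.6 CPM (SD, n = 4) and 101.6 ± 67.4 CPM. The log2 fold change of 0.06 (SE 0.59, adjusted p = 0.9998, edgeR) leaves an interval of 2 SE from -1.12 to 1.24. The counts behind these values, 1119 to 5915, make the 5.80-fold range between libraries larger than counting error.

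*Cyp17a1*, which encodes the 17-alpha-hydroxylase and 17,20-lyase (chromosome 19, 46741655 to 46747464, minus strand), followed *Star* closely. It had 223.7, 52.7, 339.6 and 61.3 CPM in wild type and 403.9, 63.5, 112.3 and 189.7 CPM in *Morc2b*-/- testes, a 7.67-fold range. The highest libraries were again *Morc2b*-/- replicate 1 and wild type replicate 3, but wild type replicate 1 came next. The within-genotype SD was 1.24 on the log2 scale for *Cyp17a1* and 1.02 for *Star*, higher than in 98.3% and 97.7% of all tested genes. The genotype difference of *Cyp17a1*, 0.18 (SE 0.69) on the log2 scale, was small beside that spread.

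*Cyp11a1*, the side chain cleavage enzyme (chromosome 9, 57862820 to 57874827, plus strand), varied less. Its level was 20.7, 12.3, 15.2 and 12.1 CPM in wild type and 25.2, 10.8, 19.1 and 17.8 CPM in *Morc2b*-/- testes, with a log2 fold change of 0.27 (SE 0.26, adjusted p = 0.9998, edgeR). Most of these reads were specific to 1 of its 2 RefSeq transcripts, with 16.7, 8.99, 12.3 and 7.57 CPM in wild type and 21.0, 7.41, 15.4 and 12.8 CPM in *Morc2b*-/-. The other transcript had 3.98, 3.30, 2.96 and 4.53 CPM in wild type and 4.14, 3.41, 3.78 and 5.05 CPM in *Morc2b*-/-. The first ranged 2.84-fold and was highest in *Morc2b*-/- replicate 1, whereas the second ranged 1.71-fold and was highest in replicate 4 of both genotypes. Reads shared by both transcripts are in neither value, and which start shown above belongs to which transcript was not examined.

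**Figure D1:**
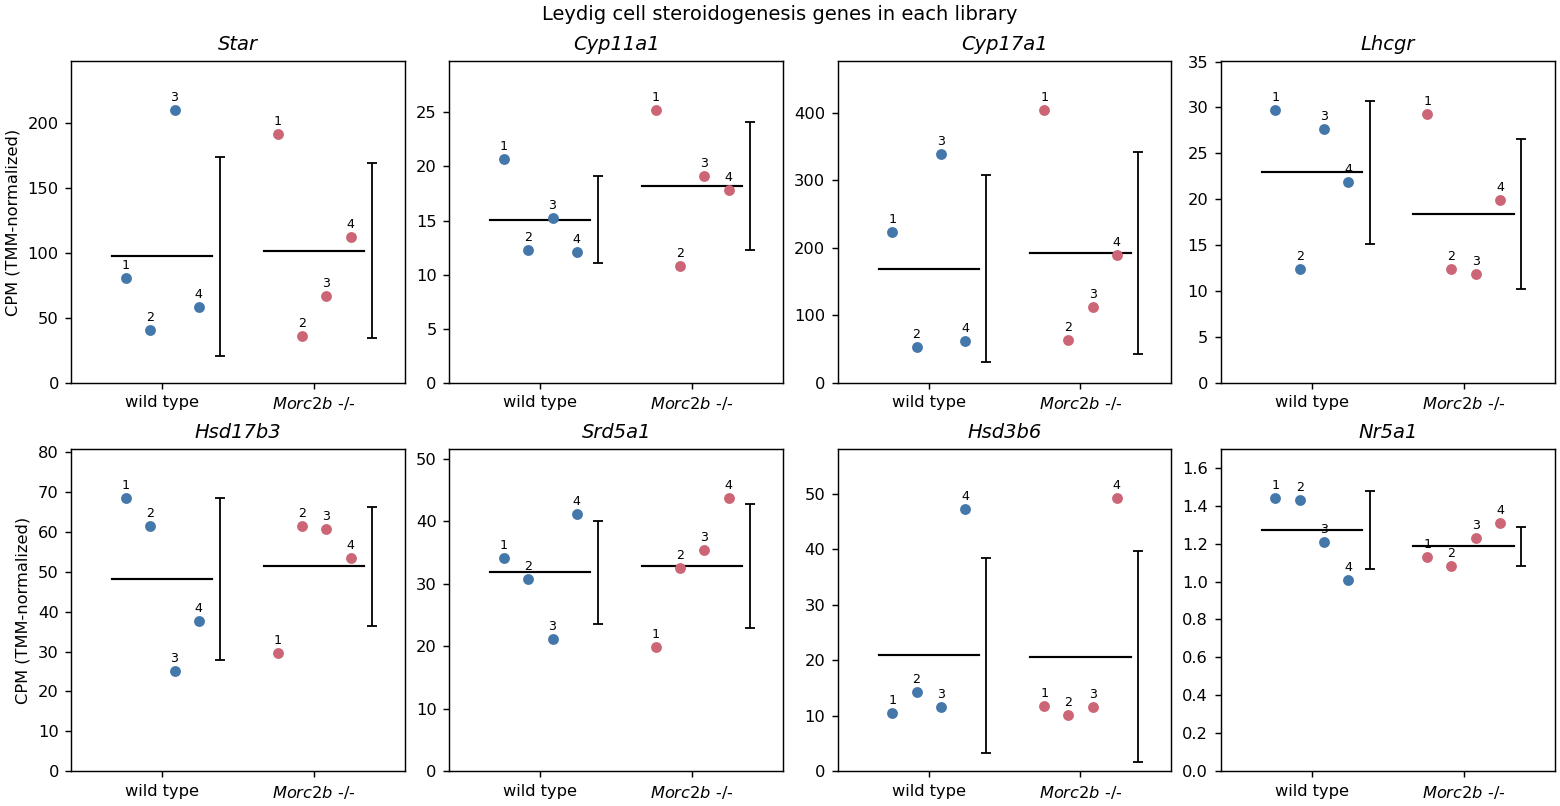
TMM-normalized CPM (vertical axis, from 0, a separate scale per gene) of 8 genes in the 4 wild type (blue) and 4 *Morc2b*-/- (red) libraries, with replicate numbers beside the points, the mean as a line and the SD as a bar. *Star* and *Cyp17a1* are highest in wild type 3 and *Morc2b*-/- 1, where *Hsd17b3* and *Srd5a1* are lowest, and *Hsd3b6* is high in replicate 4 of both genotypes.

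*Hsd17b3*, the enzyme of the last step to testosterone (chromosome 13, 64159582 to 64190509, minus strand), ran against *Star*. It had 68.5, 61.5, 25.2 and 37.7 CPM in wild type and 29.6, 61.6, 60.8 and 53.5 CPM in *Morc2b*-/- testes. Its lowest libraries, wild type replicate 3 and *Morc2b*-/- replicate 1, were those with the highest *Star*. The deviations of these libraries from their genotype means were also correlated over all tested genes (Pearson r = 0.516). Their likeness was therefore not particular to this pathway. The mean of *Hsd17b3* was 48.2 ± 20.3 CPM among wild type (SD, n = 4) and 51.4 ± 15.0 CPM among *Morc2b*-/-, a log2 fold change of 0.09 (SE 0.33). *Srd5a1*, the 5-alpha-reductase of immature adult-type cells (chromosome 13, 69712327 to 69750320, minus strand), had 34.2, 30.8, 21.2 and 41.1 CPM in wild type and 19.8, 32.5, 35.4 and 43.7 CPM in *Morc2b*-/- testes. Its lowest libraries were the same as those of *Hsd17b3*, and its highest were replicate 4 of both genotypes. The germ cell gene *Sycp3* had the same lowest and highest libraries, and its deviations followed those of *Srd5a1* (Pearson r = 0.85 over 8 libraries). The log2 fold change of *Srd5a1* was 0.04 (SE 0.25), and 15.8% of its exonic bases are shared with *Gm17108* on the same strand.

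Within a library, the ratio of *Star* to *Hsd17b3* does not depend on depth. It is not a measure of the balance of adult-type and fetal-type cells. *Hsd17b3* did not vary with *Hsd3b6* (Pearson r of the deviations -0.08 over 8 libraries), and the cell type that made each transcript was not measured. In CPM the ratio was 1.17, 0.668, 8.33 and 1.55 in wild type and 6.46, 0.587, 1.10 and 2.09 in *Morc2b*-/- testes, a 14.2-fold range. Wild type replicate 3 and *Morc2b*-/- replicate 1 stood at 8.33 and 6.46, and no other library was above 2.09. On the log2 scale the mean ratio was 0.84 ± 1.57 (SD, n = 4) in wild type and 0.78 ± 1.48 in *Morc2b*-/-, so the spread within each genotype exceeded the difference between them. By contrast the ratio of *Cyp17a1* to *Star* ranged 2.65-fold, from 1.05 to 2.78.

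**Figure D2:**
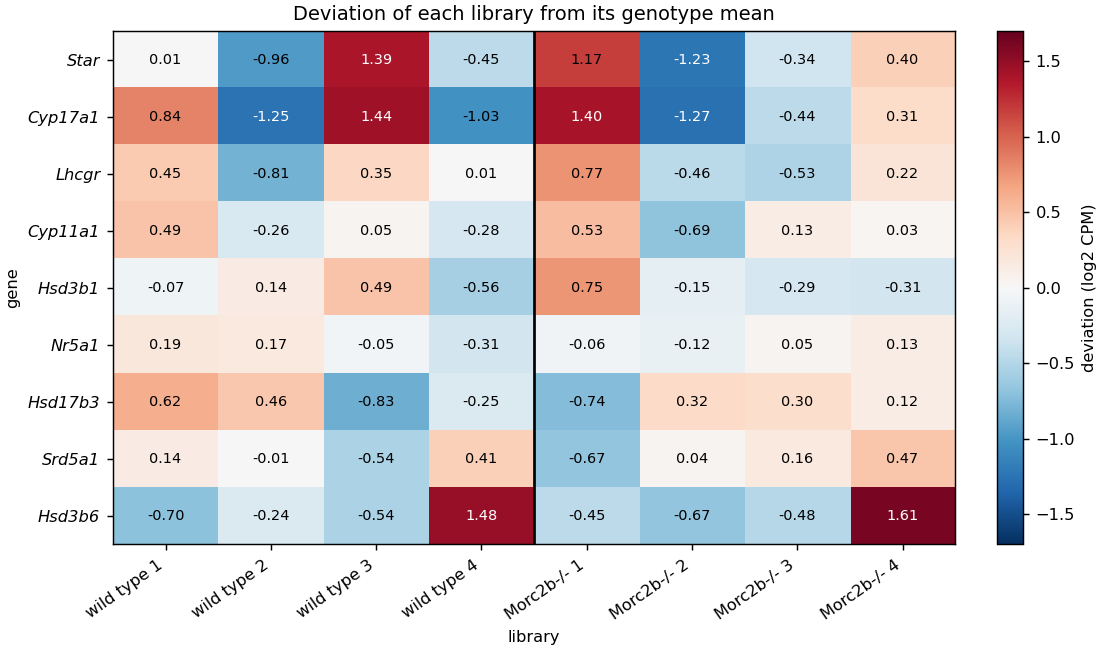
Deviation of each library (columns) from the mean of its genotype, in log2 CPM, for the 9 tested genes (rows), with red above and blue below the mean and a line between the genotypes. *Star*, *Cyp17a1* and *Lhcgr* are red together in wild type 3 and *Morc2b*-/- 1, where *Hsd17b3* (-0.83 and -0.74) and *Srd5a1* (-0.54 and -0.67) are blue, and *Hsd3b6* is red in both replicate 4 libraries (1.48 and 1.61).

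*Hsd3b6*, the 3-beta-hydroxysteroid dehydrogenase of adult-type Leydig cells (chromosome 3, 98609427 to 98618366, minus strand), had 10.4, 14.3, 11.6 and 47.2 CPM in wild type testes. In *Morc2b*-/- testes it had 11.7, 10.1, 11.5 and 49.2 CPM. Replicate 4 of either genotype was at least 3.30 times any other library, and the remaining 6 lay between 10.1 and 14.3 CPM. The means were 20.9 ± 17.6 CPM (SD, n = 4) and 20.6 ± 19.1 CPM, with a log2 fold change of -0.02 (SE 0.65, adjusted p = 0.9998, edgeR). This value rests on both replicate 4 libraries, since the log2 fold change was 0.76 without the wild type one and -0.91 without the *Morc2b*-/- one. The counts were 1502 and 1432 in the replicate 4 libraries and 325 to 401 in the others.

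*Hsd3b1*, which makes the isoform used by Leydig cells of both types (chromosome 3, 98656117 to 98663717, minus strand), had 5 to 22 counts per library. Its log2 fold change was 0.63 (SE 0.38), with the highest level, 0.711 CPM, in *Morc2b*-/- replicate 1 and 0.309 to 0.352 CPM in the other *Morc2b*-/- libraries. Because its 2 listed transcripts share sequence, these counts are not its level. For that reason the share of *Hsd3b6* in the counts of both genes, 94.3% to 99.7%, does not give the balance of the isoforms. The coding sequences of *Hsd3b1* and *Hsd3b6* are 90.0% identical, and those of *Hsd3b6* and *Hsd3b3* are 94.5% identical. Of the 75-base windows of *Hsd3b6*, 7.90% also occur in *Hsd3b2* or *Hsd3b3*, so part of its reads could not be assigned.

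Levels of different genes were compared per kilobase of transcript, for the genes with 1 transcript. Averaged over the 8 libraries, *Cyp17a1* was highest with 99.6 CPM per kb, followed by *Hsd17b3* with 38.7, *Star* with 35.7, *Srd5a1* with 12.2, *Hsd3b6* with 11.5 and *Lhcgr* with 8.09 CPM per kb. The order was not the same in each testis. In wild type replicate 3, *Star* had 75.3 CPM per kb and *Hsd17b3* 19.6, whereas in wild type replicate 2 *Star* had 14.7 and *Hsd17b3* 47.8. Neighbours in this order differed by less than the larger of their SDs within each genotype.

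The fetal-type list held 4 genes, of which 2 were tested and 0 were called. *Thbs2*, an extracellular matrix glycoprotein, had 69.4, 54.1, 62.6 and 37.3 CPM in wild type and 70.6, 61.2, 70.9 and 30.7 CPM in *Morc2b*-/- testes. *Hsd17b1*, another 17-beta-hydroxysteroid dehydrogenase, is also known from Sertoli cells, so its place in this list is not exclusive. It had 12.2, 8.07, 8.75 and 4.81 CPM in wild type and 11.7, 7.52, 12.8 and 3.89 CPM in *Morc2b*-/- testes. Both were lowest in the replicate 4 libraries, where *Hsd3b6* was highest. This was not particular to fetal-type genes, because 14.2% of all tested genes had both replicate 4 libraries below the other 6, and 13.5% had both above them. The log2 fold changes between genotypes were 0.06 (SE 0.27) and 0.09 (SE 0.38). *Crhr1* had at most 1 count and *Mc2r* had 0 counts in every library, but both have more than 1 listed transcript, so these are not levels.

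The adult-type list held 8 genes, *Hsd3b6*, *Hsd17b3*, *Ptgds*, *Sult1e1*, *Vcam1*, *Hsd11b1*, *Insl3* and *Lhcgr*. Whether each is particular to adult-type cells was not measured. Of these, 5 were tested and 0 were called, with 2 positive and 3 negative log2 fold changes and a median of -0.02. *Vcam1*, a cell adhesion molecule, had 139.0 ± 22.3 CPM among wild type (SD, n = 4) and 133.0 ± 15.5 CPM among *Morc2b*-/-. *Ptgds*, a prostaglandin D synthase, did not follow *Hsd3b6*: it had 1.76 and 1.34 CPM in the replicate 4 libraries and 3.54 to 6.07 CPM in the other 6. *Sult1e1*, an estrogen sulfotransferase, had at most 11 counts. *Hsd11b1*, a glucocorticoid-activating enzyme with more than 1 listed transcript, had at most 1 count. Genes of the adult-type list were thus not high in the same libraries.

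**Figure D3:**
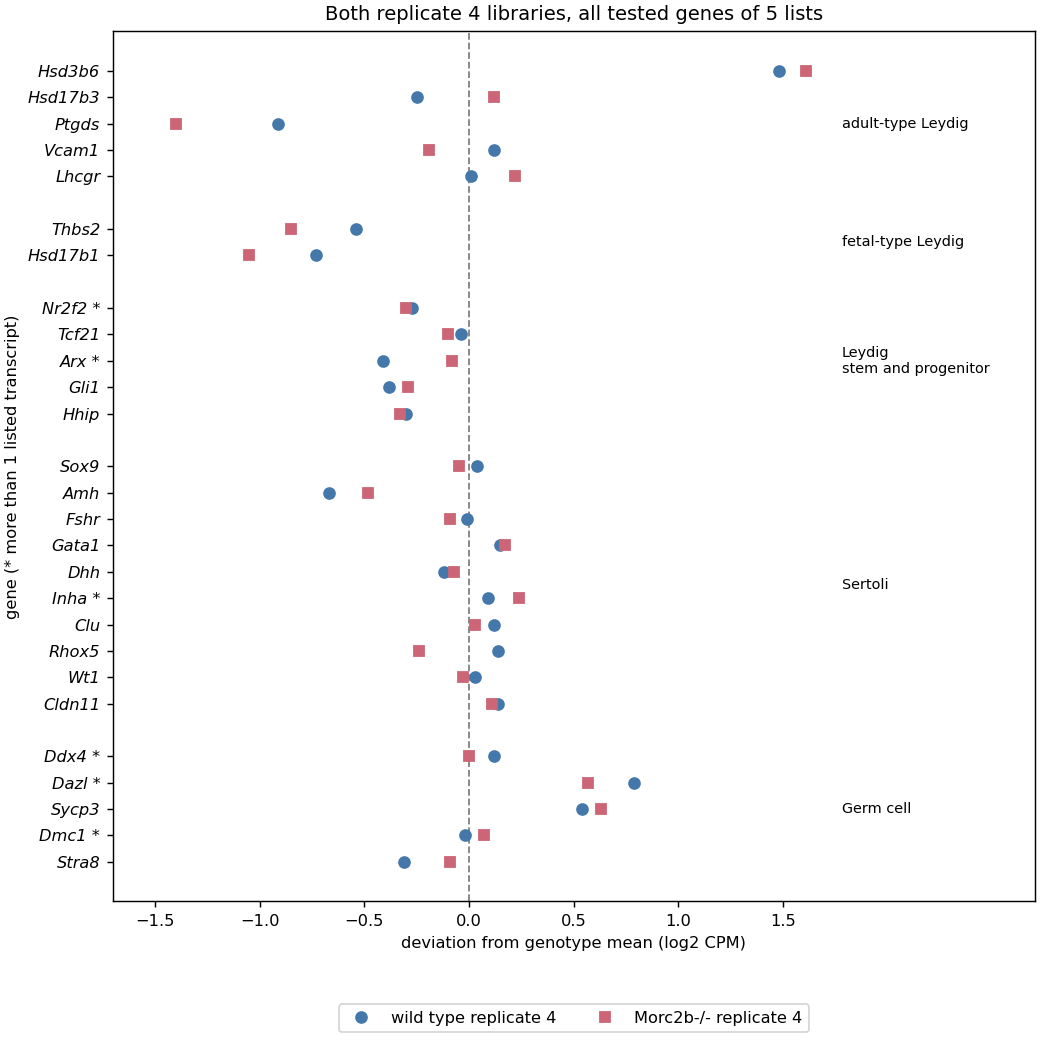
Deviation of wild type replicate 4 (blue circles) and *Morc2b*-/- replicate 4 (red squares) from the mean of their genotype, in log2 CPM (horizontal axis), for all tested genes of 5 lists (rows, with genes of more than 1 listed transcript starred). *Hsd3b6* lies at 1.48 and 1.61, *Thbs2* and *Hsd17b1* lie below 0, and most Sertoli cell genes lie near 0.

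Within the marker lists of other cells, some genes had both replicate 4 libraries at an extreme. Over all tested genes, 14.2% had both lowest and 13.5% had both highest. Of 10 Sertoli cell genes, 1 was lowest there (*Amh*, which these cells lose as they mature, with 77.2 and 87.5 CPM beside 124.5 to 174.2 CPM), 1 was highest (*Inha*, an inhibin subunit, with 217.1 and 224.6 CPM), and 8 were neither. Of 5 tested germ cell genes, *Dazl*, an RNA-binding protein with 2 listed transcripts, and *Sycp3*, a component of the meiotic chromosome axis, were highest there and 3 were neither. *Sycp3* had 666.6 and 660.6 CPM beside 267.3 to 558.0 CPM, whereas *Stra8*, a gene of meiotic entry, had its lowest value, 225.3 CPM, in wild type replicate 4. The endothelial gene *Cdh5* was lowest in both (62.0 and 61.1 CPM), and the macrophage gene *Mrc1* was highest in both (108.6 and 98.5 CPM). The spermatid genes *Prm1* and *Prm2* were lowest in both, at 0 CPM. These genes were chosen after their values were seen, and the part of cell composition in the *Hsd3b6* values was not tested. Same-numbered libraries of the genotypes are not a pair by their labels.

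The list of immature adult-type genes held 3 genes, of which 2 were tested and 0 were called. Beside *Srd5a1*, *Akr1c14*, a 3-alpha-hydroxysteroid dehydrogenase acting after 5-alpha-reduction, had 15.0 ± 0.546 CPM among wild type (SD, n = 4) and 15.8 ± 1.81 CPM among *Morc2b*-/- testes, with a log2 fold change of 0.08 (SE 0.10). *Rdh16*, a retinol dehydrogenase, had at most 3 counts. Of the 8 genes of Leydig stem and progenitor cells, 5 were tested and 0 were called. *Tcf21*, a transcription factor of stromal progenitors, had 62.2 ± 8.14 CPM in wild type and 67.8 ± 3.19 CPM in *Morc2b*-/-. *Gli1* and *Hhip*, targets of hedgehog signalling, had lower levels in both replicate 4 libraries (46.9 and 46.8 CPM, and 33.2 and 32.7 CPM) than in the other 6. *Nr2f2*, with 2 listed transcripts, was also lowest there, which makes 3 of the 5 tested genes. Over all tested genes, 14.2% had both replicate 4 libraries lowest. Between genotypes, *Gli1* and *Hhip* had log2 fold changes of -0.10 (SE 0.17) and -0.00 (SE 0.17).

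Upstream of *Star*, 9 of 10 genes of cholesterol uptake and transport were tested and 0 were called, with a median log2 fold change of 0.03. *Soat1*, which esterifies cholesterol for storage, had 306.2, 265.0, 389.4 and 377.5 CPM in wild type and 395.9, 268.9, 268.7 and 477.9 CPM in *Morc2b*-/- testes. It was lowest in wild type replicate 2 and in *Morc2b*-/- replicates 2 and 3, where *Star* was also below its genotype mean. In wild type replicate 4, however, *Star* was below the mean (58.5 CPM) while *Soat1*, at 377.5 CPM, was the second highest of its genotype. *Npc2* and *Vdac1*, of lysosomal and mitochondrial cholesterol transport, had log2 fold changes of 0.03 (SE 0.06) and 0.06 (SE 0.08). In the cholesterol synthesis list, 9 of 10 genes were tested and 0 were called, with a median of 0.02. *Srebf2*, a regulator of these genes, averaged 311.6 ± 43.6 CPM among wild type (SD, n = 4) and 308.4 ± 29.4 CPM among *Morc2b*-/- testes.

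The mitochondrial cytochromes P450 need electrons passed by ferredoxin. *Fdx1*, which encodes it, had 25.4, 21.1, 47.4 and 26.1 CPM in wild type and 39.0, 21.8, 22.1 and 40.1 CPM in *Morc2b*-/- testes. Its highest library, wild type replicate 3, was also that of *Star*, and *Morc2b*-/- replicates 4 and 1 came next. *Fdxr*, the reductase that feeds it, had 112.3 ± 15.8 CPM among wild type (SD, n = 4) and 108.1 ± 14.6 CPM among *Morc2b*-/-, and *Por*, the electron donor of *Cyp17a1*, had 127.4 ± 22.0 and 133.5 ± 7.75 CPM. Of the 5 electron donor genes listed, 4 were tested and 0 were called. *Fdx1* has 2 listed transcripts, so its values hold only reads specific to 1 of them.

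Of the 14 genes of transcription and signalling in Leydig cells, 7 were tested and 0 were called. *Gata6*, a zinc finger transcription factor of gonadal somatic cells, was the only one with an unadjusted p under 0.05, beside 1.84% of all tested genes. It had 67.1, 65.9, 70.2 and 65.2 CPM in wild type and 76.9, 72.5, 78.0 and 72.1 CPM in *Morc2b*-/- testes. These values did not overlap, as in 1.29% of all tested genes. The log2 fold change of 0.16 (SE 0.06) had an adjusted p of 0.9998 (edgeR quasi-likelihood test) and did not pass the threshold. *Nr0b1*, a repressor of the factor encoded by *Nr5a1*, had 94.8 ± 1.65 CPM among wild type (SD, n = 4) and 101.3 ± 9.90 CPM among *Morc2b*-/-, and *Nr3c1*, the glucocorticoid receptor, had a log2 fold change of 0.02 (SE 0.05). *Gata4*, with more than 1 listed transcript, had at most 1 count, which is not its level.

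Of the 15 other steroid enzymes listed, 7 were tested and 0 were called, with a median log2 fold change of 0.03. *Hsd17b4*, *Hsd17b7* and *Hsd17b12*, broadly expressed members of the 17-beta-hydroxysteroid dehydrogenase family, ranged from 199.2 to 225.0, 48.5 to 61.4 and 146.5 to 162.3 CPM. *Cyp11b1*, the 11-beta-hydroxylase of the adrenal cortex, did not pass the filter, with 1.89 CPM in *Morc2b*-/- replicate 3 and at most 0.388 CPM elsewhere. The summed level of 5 adrenal cortex markers was 51.7 CPM in wild type replicate 1 and 6.22 to 18.6 CPM elsewhere, nearly all from *Akr1b7*, an aldo-keto reductase also made in the vas deferens. *Cyp11b2*, the aldosterone synthase with 1 listed transcript, was at 0 in every library, as was *Mc2r*, and the part of adrenal RNA in these values was not tested. *Cyp19a1*, the aromatase, had at most 7 counts and also has more than 1 listed transcript.

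**Figure D4:**
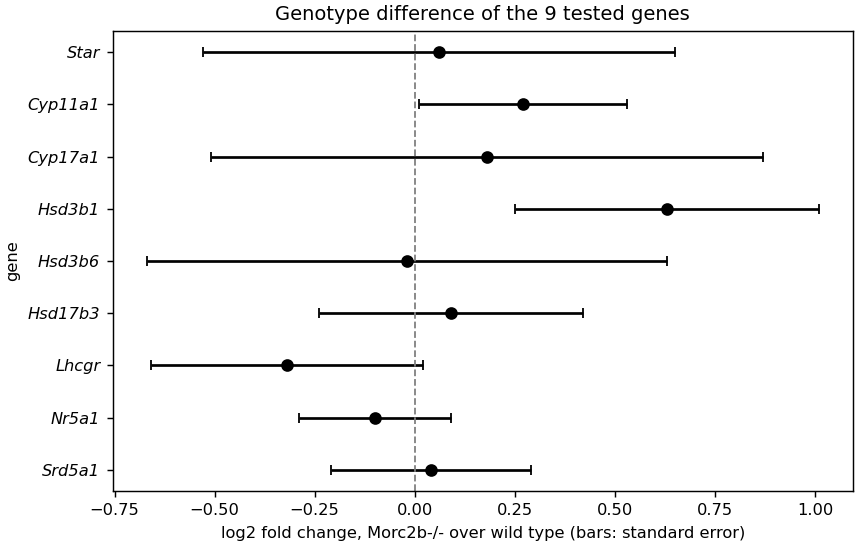
Log2 fold change of *Morc2b*-/- over wild type (horizontal axis) for the 9 tested genes, with the standard error from edgeR's quasi-likelihood fit as bars and a dashed line at 0. *Hsd3b1* (0.63) and *Lhcgr* (-0.32) lie at the ends, and *Star*, *Cyp17a1* and *Hsd3b6* have the widest bars (0.59, 0.69 and 0.65).

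The Leydig marker sum varied from 134.5 to 605.7 CPM in wild type and from 134.4 to 663.2 CPM in *Morc2b*-/- testes, a 4.93-fold range over the 8 libraries. *Star* and *Cyp17a1* together made up 59.3% to 90.7% of it, while the sum of the adult-type list ranged from 179.2 to 277.2 CPM. Marker sums of other resident cells ranged between 1.21-fold (Sertoli) and 2.16-fold (peritubular myoid). These sums also rest on their most abundant genes. *Clu* made up most of the Sertoli sum, with 5492.9 to 6790.4 CPM and a 1.24-fold range, whereas *Amh* ranged 2.26-fold. *Vcam1*, with 111.1 to 163.1 CPM, was the largest part of the adult-type sum. The ranges of the sums are thus not a comparison of how steady the cell types were. Sertoli cell markers summed to 7509.5 to 8577.1 CPM in wild type and 8170.2 to 9117.2 CPM in *Morc2b*-/-. Of these 10 genes 0 were called after adjustment. *Clu*, a secreted chaperone, passed an unadjusted p under 0.05 (log2 fold change 0.14), as 1.84% of all tested genes did. Macrophage markers summed to 170.8 to 225.6 CPM, endothelial markers to 81.8 to 159.0 CPM and germ cell markers to 574.9 to 982.7 CPM over the 8 libraries. Peritubular myoid markers summed to 1693.6 CPM in wild type replicate 1, the library with the highest epididymis sum, and to 784.1 to 999.4 CPM elsewhere. Adipocyte markers summed to at most 1.89 CPM, and 3 blood markers had 0 counts, but several of these genes have more than 1 listed transcript or near-identical copies, so the values do not measure fat or blood in the samples.

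The genes whose deviations from the genotype means were most like the mean deviation of the 9 tested genes were *Trak1* (Pearson r = 0.979 over 8 libraries), *Slc25a3* (0.972), *Pappa* (0.967), *Mark4* (0.967) and *Nck2* (0.963). These are the highest of all tested genes outside the lists and carry no test. *Pappa*, a protease of insulin-like growth factor binding proteins, ranged 2.42-fold, from 54.5 to 131.6 CPM, whereas *Trak1* ranged 1.15-fold. *Morc2b*-/- replicates 1 and 4 were the highest libraries for each of the 5 genes. This follows from the selection, since the mean deviation was itself highest in these libraries (0.30 and 0.33). That mean also averages genes that ran against each other, such as *Star* and *Hsd17b3* (Pearson r = -0.77 over 8 libraries).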

How the data were processed

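The authors made stranded mRNA libraries, trimmed the reads, mapped them to mm9 with Tophat and deposited raw read counts per RefSeq transcript, not pooled and not normalized. The counting program and its strand setting are not given in the sources used here. Cufflinks and Cuffdiff, named in the submitters' processing notes, belong to FPKM values not used here. Counts were summed by gene symbol from RefSeq (35522 of 35819 transcripts matched, and the 297 others held 0.484% of counts). Genotypes were compared over all 8 libraries with edgeR 4.0.16 in R 4.3.3 (TMM, filterByExpr, glmQLFit, glmQLFTest) and Benjamini-Hochberg adjustment at 0.05, and the standard error is the absolute log2 fold change over the square root of F. The p-values set the difference between genotypes against the spread among the 4 libraries of each genotype, estimated with information from all tested genes. The test was also run on simulated data, with a result that is not reported here. DESeq2 1.42.0 was an alternative.

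Members and gene lists were chosen with earlier results of these data known. The genes named were the 10 of the pathway, *Morc2b*, in each pathway list those with an unadjusted p under 0.05 or with 1 library holding most of the CPM, otherwise the 3 with the highest mean CPM, and the 5 genes most like the members. Other named genes were chosen after their values were seen. Log2 CPM used a prior count of 2. Gene coordinates are from the NCBIM37 (mm9) annotation, promoter windows from RefSeq GRCm38.p6. Identity was computed from coding sequences of that annotation. Figures were drawn with matplotlib. Some genes of the lists are not reported here.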

Additional observations from a re-analysis of the deposited data

Results flagged for a closer look

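By Dixon's test, 1 library stood far from the other 3 of its genotype in 3 of 18 groups tested among the 10 genes of the pathway. Chance flags about 1 in 20 groups, and over all tested genes 6.45% of 27013 groups were flagged. *Hsd3b6* had 47.2 CPM in wild type replicate 4, beside 10.4 to 14.3 CPM in the other wild type libraries. It had 49.2 CPM in *Morc2b*-/- replicate 4, beside 10.1 to 11.7 CPM in the other *Morc2b*-/- libraries. *Hsd3b1* had 0.711 CPM in *Morc2b*-/- replicate 1, beside 0.309 to 0.352 CPM, values that rest on 5 to 22 counts.

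In the other lists of pathway genes, 4 of 102 groups were flagged, among them *Cyp11b1* with 1.89 CPM in *Morc2b*-/- replicate 3, beside 0.103 to 0.388 CPM. In the marker lists of cells and tissues, 22 of 79 groups were flagged, 13 of them for wild type replicate 1 and 5 for *Morc2b*-/- replicate 3. One of these was *Akr1b7*, with 50.7 CPM in wild type replicate 1 beside 5.41 to 8.40 CPM, and the others were mostly spermatid, epididymis and peritubular myoid markers.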

How the results depend on the processing

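In each of the 16 alternatives, 3 of them added after seeing the data, 0 of the tested pathway genes were called and 0 had an unadjusted p under 0.05. Over all genes DESeq2 called 1 gene and the other alternatives 0. The number of genes at an unadjusted p under 0.05, 249 in the main test, was 422 without a filter on low counts, 421 without wild type replicate 3 and *Morc2b*-/- replicate 3, and 204 to 504 with 1 library left out (504 without wild type replicate 3, 466 without wild type replicate 4, 385 without *Morc2b*-/- replicate 1).

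The log2 fold changes of *Cyp11a1*, *Hsd3b1*, *Lhcgr* and *Nr5a1* kept their sign in every alternative that could be fitted, but not their size. With 1 library left out they ranged from 0.08 to 0.47, 0.27 to 0.85, -0.64 to -0.16 and -0.20 to -0.03, and *Lhcgr* was -0.02 without wild type replicate 1 and *Morc2b*-/- replicate 3. The values of *Star* ranged from -0.44 (without *Morc2b*-/- replicate 1) to 0.76 (without wild type replicate 3), of *Cyp17a1* from -0.48 to 0.77, of *Hsd17b3* from -0.12 to 0.31, of *Hsd3b6* from -0.91 to 0.76 and of *Srd5a1* from -0.13 to 0.22. Without both replicate 4 libraries they were -0.17 for *Star*, -0.09 for *Cyp17a1* and -0.03 for *Hsd17b3*. Without wild type replicate 3 and *Morc2b*-/- replicate 3 they were 0.91 for *Star*, 0.96 for *Cyp17a1*, -0.21 for *Hsd17b3* and -0.15 for *Srd5a1*. The cause was not tested. *Hsd3b1* did not pass the filter in 3 alternatives.

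The deviations of same-numbered libraries had correlations across genes of -0.322 to 0.453 in 4 pairs, highest for replicate 4, with a mean of 0.055. In 12 other pairs they were -0.498 to 0.614, with a mean of -0.0157. The labels do not pair the libraries, and 4 correlations are too few to settle whether the numbers do. With the replicate block, 0 genes were called and 572 had an unadjusted p under 0.05, and the log2 fold change was 0.12 for *Star*, 0.32 for *Cyp17a1* and -0.07 for *Hsd3b6*. Depth limits *Hsd3b1* and *Nr5a1*, and the listing of several transcripts per gene limits *Cyp11a1* as well.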
